A study of Mus musculus with 74 samples.

Results

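Cancer-associated fibroblasts (CAFs) are the activated connective tissue cells of a tumor, which lay down collagen, remodel matrix and signal to tumor cells. They are recognized by proteins on their surface, such as the PDGF receptors and fibroblast activation protein, and by the matrix proteins they secrete. PDGF receptors are tyrosine kinases that bind dimers of PDGF chains and drive growth and migration of fibroblasts and of the pericytes that wrap small vessels, and many cells of healthy lung connective tissue also carry them. The 8 genes described here are Fap, Lrrc15, Thy1, Cilp, Serpinf1 and Dclk1, set against the PDGF receptor genes Pdgfra and Pdgfrb, out of 18208 genes measured in Her2, 19320 in C3Tag, 17270 in BALB, 17351 in SEAGN and 17829 in a table deposited under AKR. They were chosen by name, and on how their means in lung metastases and primary tumors differed in these same data, so every difference given for them is a description without a test. Dclk1 encodes a kinase that acts inside the cell on microtubules, so it is neither a surface nor a secreted marker.

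RNA was sequenced from primary tumors (PT) and lung metastases (Lung met) of female mice that carry an oncogene in the mammary epithelium, with 74 samples in 12 groups. FVB Her2 (MMTV-Her2) had 6 PT and 6 Lung met samples, FVB C3Tag had 7 and 7, and FVB Myc (MMTV-Myc) had 6 and 6. The PyMT-F1 crosses, in which MMTV-PyMT males on FVB were bred to AKR, BALB or SEAGN females, had 6 and 6 each. The MMTV promoter, which is active mainly in mammary epithelium, drives Her2, Myc and PyMT, and the C3(1) promoter drives the SV40 T antigen in C3Tag. Every group has an FVB parent and carries a transgene, no group is healthy tissue, and the labels give no ages. Primary tumor tissue of 1 animal was combined and ground before a fragment was taken, whereas whole metastases were extracted, and PT and Lung met of an animal carry the same number. For Her2, C3Tag and Myc the study's methods describe removal of the primary tumor by surgery before the animal was aged further, whereas the labels say that tumors and metastases were harvested at the humane endpoint.

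Bulk RNA counts the transcripts of all cells in a piece of tissue, so fewer fibroblasts and less RNA per fibroblast cannot be told apart in any value below. Each value is the authors' normalized mean of a tissue, without a value for any single sample, and its spread between animals and the sequencing depth behind it are unknown. A gene was counted as lower when the Lung met mean was at least 2-fold below the PT mean. Of 36 PyMT-F1 samples, 23 carried a genotype label naming another strain than their title, and the title was followed. The strain of the table deposited under AKR is not settled, because for several genes its differences equal those that the study lists under another cross, and it is named here by its deposited title. No mean was analysed for Myc. In the PT mean of C3Tag a single gene, Gm22614, took 38.3% of the summed means.

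Of the 8 genes, 6 had a mean in all 5 tables, Cilp was listed in 3 and Lrrc15 in C3Tag alone, which makes 34 pairs of a gene and a table. In Her2, 4 of 7 listed members were at least 2-fold lower in Lung met, where 1.43% of all genes were. The count was 4 of 8 in C3Tag (1.70% of all genes), 4 of 6 in BALB (2.40%), 4 of 6 in SEAGN (3.22%) and 3 of 7 in the AKR-named table (1.73%). Because this contrast chose the members, nothing is read from these shares. The median log2 of Lung met over PT across the members was -1.65 in Her2, -1.30 in C3Tag, -1.48 in BALB, -2.06 in SEAGN and -0.79 in the AKR-named table, with the median of all genes between -0.00 and 0.03. Thy1 was past that limit in 5 of 5 tables, Fap and Serpinf1 in 4 of 5, Cilp in 3 of 3, Dclk1 in 2 of 5 and the PDGF receptors in none. The values closest to that line were Serpinf1 in the AKR-named table (-0.79) and Fap in C3Tag (-0.88) on its outer side, and Fap in the AKR-named table (-1.33) and in BALB (-1.34) on its inner side.

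**Figure D1:**
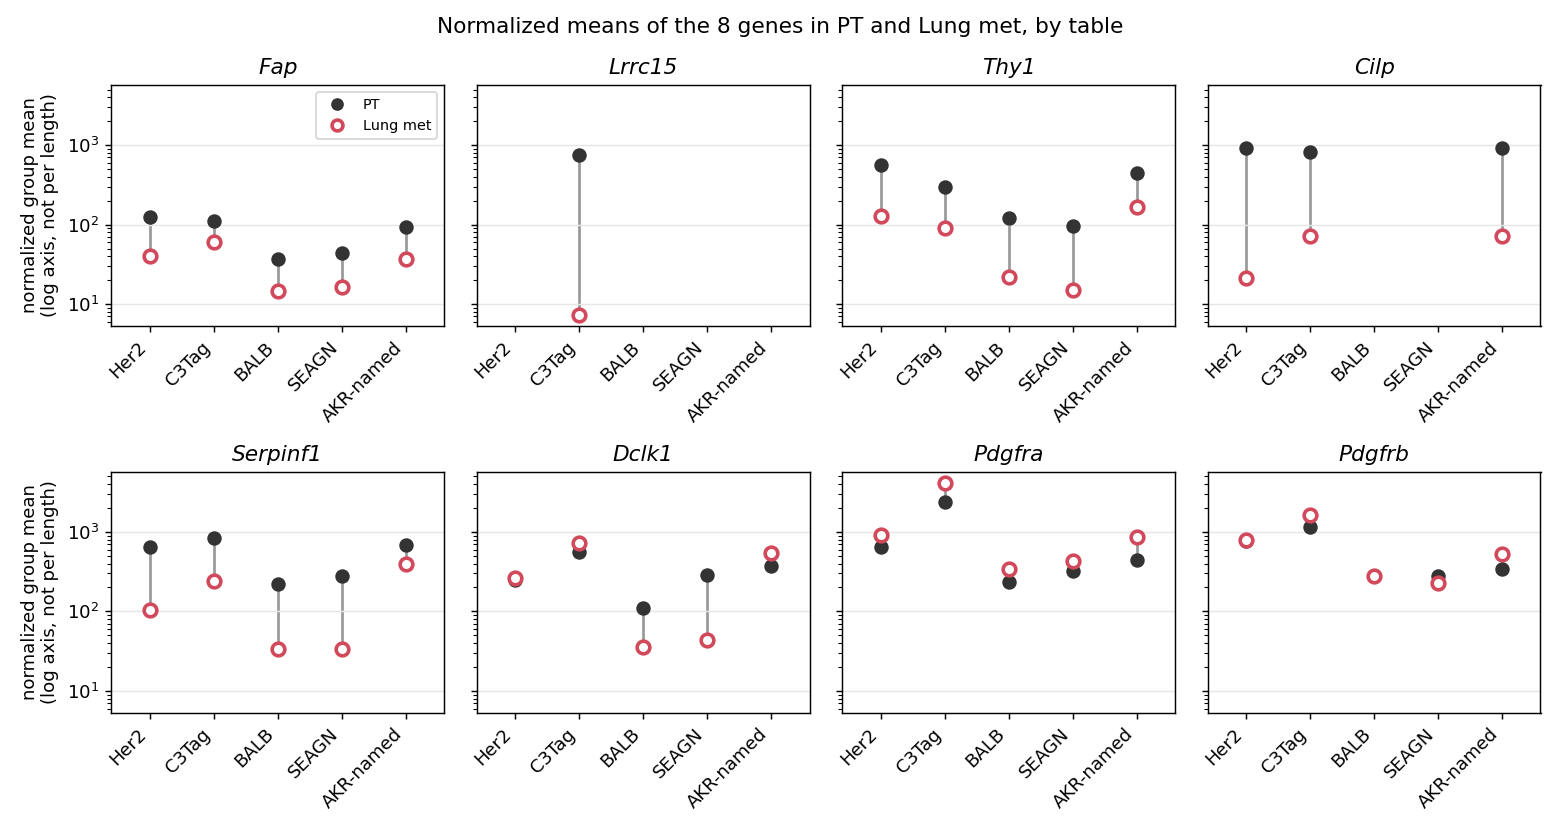
Normalized group means of each gene (log axis, arbitrary normalized units, not corrected for gene length) in PT (filled) and Lung met (open), 1 pair of points per table. Lung met lies below PT for Fap, Thy1 and Serpinf1 in all 5 tables, and above PT for Pdgfra in all 5. A gap means that the gene was not among the named rows of that table.

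The PDGF receptors set the contrast for the other markers, as neither was 2-fold lower in Lung met in any table. Pdgfra, the receptor for PDGF-A, PDGF-B and PDGF-C chains (GRCm38, 5:75152292-75198215, plus strand), had PT means of 637 in Her2 and 2391 in C3Tag against Lung met means of 915 and 4164. In the PyMT-F1 tables its PT means were 235 in BALB, 318 in SEAGN and 443 in the AKR-named table, against 344, 432 and 851 in Lung met. Lung met was therefore higher in 5 of 5 tables, by a log2 of 0.44 in SEAGN to 0.94 in the AKR-named table, without reaching 2-fold. These differences exceeded those of 89.7% to 93.7% of all genes in their tables.

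Pdgfrb, the receptor for PDGF-B and PDGF-D that also marks pericytes (18:61045150-61085061, plus strand), had PT means of 765 in Her2 and 1156 in C3Tag, and Lung met means of 801 and 1653. Its PT means of 277 in BALB, 282 in SEAGN and 337 in the AKR-named table stood against Lung met means of 277, 226 and 529. Direction was mixed, with log2 values of 0.07 in Her2, 0.52 in C3Tag, -0.00 in BALB, -0.32 in SEAGN and 0.65 in the AKR-named table. In each table Pdgfrb had a lower log2 value than Pdgfra, and its mean as a percentage of that of Pdgfra went from 120% to 87.6% in Her2 and from 88.8% to 52.4% in SEAGN.

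Fap, Thy1 and Lrrc15 encode the surface proteins of the group. Fap, a membrane serine protease that cuts after proline and is little expressed by resting fibroblasts (2:62500943-62574075, minus strand), had PT means of 125 in Her2, 113 in C3Tag, 36.5 in BALB, 44.3 in SEAGN and 93.2 in the AKR-named table. Its Lung met means were 39.9, 61.1, 14.5, 16.4 and 37.0 in the same order. Fap was thus lower in every table, from 1.85-fold in C3Tag to 3.13-fold in Her2, and its log2 values spanned only 0.76. That was the narrowest span among the members that were lower in all their tables and listed in all 5. Per kilobase of exon, Fap stood above 23.5% of genes in PT and 9.69% in Lung met of Her2, 21.0% and 11.4% in C3Tag, and 20.0% and 8.88% in the AKR-named table.

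Thy1, the GPI-anchored glycoprotein CD90 found on fibroblasts and on mouse T cells (9:44043384-44048579, plus strand), had PT means of 557 in Her2, 295 in C3Tag, 121 in BALB, 96.3 in SEAGN and 442 in the AKR-named table. Lung met means were 129.6, 89.7, 22.1, 15.0 and 167 in that order. The Lung met mean was lower by 2.65-fold in the AKR-named table, 3.29-fold in C3Tag, 4.29-fold in Her2, 5.49-fold in BALB and 6.41-fold in SEAGN. Because Thy1 is also a T cell gene, T cell markers are given beside it, and their part in its difference was not tested. Of the 7 T cell genes, 5 were analysed in Her2, 4 in C3Tag, 3 in BALB, 4 in SEAGN and 7 in the AKR-named table, and of these 2, 3, 2, 1 and 1 were lower in Lung met, none of them 2-fold. Their summed level was 260 in PT and 277 in Lung met of Her2, 377 and 276 in C3Tag, 44.8 and 48.0 in BALB, 40.3 and 51.0 in SEAGN, and 225 and 514 in the AKR-named table. Among them Cd3e, part of the T cell receptor complex, had log2 values of 0.09 in C3Tag, 0.72 in BALB, 1.37 in SEAGN and 1.19 in the AKR-named table, and Cd8a, the co-receptor of cytotoxic T cells, was lower in the 4 tables that listed it, from -0.44 in the AKR-named table to -0.84 in C3Tag.

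Lrrc15, a transmembrane protein with leucine-rich repeats that TGF-beta induces in CAFs (16:30269302-30283256, minus strand), was listed only in C3Tag. Its mean was 746 in PT and 7.34 in Lung met, a 102-fold difference (log2 -6.67) and the widest of all 34 values. Per kilobase of exon it stood above 57.8% of genes in PT and 0.457% in Lung met. With 10 added to both means the log2 became -5.45, and no sample values were at hand to show how many animals carried the PT level.

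Promoter sequence is shown for Lrrc15 and Cilp, the members with the widest differences, and for Pdgfra, which was higher in Lung met in every table. Each run is the 250 bases before the RefSeq start in GRCm38.p6, written 5′ to 3′ on the strand of the gene, with capitals marking the letters of a searched motif. Such windows were used for 5 of the 8 members, 6 windows in all, as Dclk1 has more than 1 start. None was used for Fap, Thy1 or Pdgfrb. The positions are chr16:30283255-30283504 on the minus strand for Lrrc15, chr9:65264930-65265179 on the plus strand for Cilp and chr5:75152001-75152250 on the plus strand for Pdgfra.
Lrrc15: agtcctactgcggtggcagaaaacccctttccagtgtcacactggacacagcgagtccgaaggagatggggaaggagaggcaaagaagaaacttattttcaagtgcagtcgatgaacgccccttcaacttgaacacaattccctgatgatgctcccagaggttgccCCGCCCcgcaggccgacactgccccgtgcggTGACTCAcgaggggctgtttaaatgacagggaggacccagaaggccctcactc
Cilp: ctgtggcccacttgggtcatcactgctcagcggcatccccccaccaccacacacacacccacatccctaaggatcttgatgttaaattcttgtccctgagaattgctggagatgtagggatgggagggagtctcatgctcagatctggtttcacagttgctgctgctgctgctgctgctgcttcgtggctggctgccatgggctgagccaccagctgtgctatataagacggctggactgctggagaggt
Pdgfra: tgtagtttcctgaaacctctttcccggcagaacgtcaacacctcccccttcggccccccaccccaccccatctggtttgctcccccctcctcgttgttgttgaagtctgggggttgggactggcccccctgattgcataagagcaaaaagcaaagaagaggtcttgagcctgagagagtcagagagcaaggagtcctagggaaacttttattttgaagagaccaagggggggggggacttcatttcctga

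The motifs searched on both strands were AP-1 (TGACTCA), TEAD (GGAATG), the GC box (GGGCGG) and the TATA box (TATAAA), and none of these overlaps another. Lrrc15 held an AP-1 match that begins 53 bases before the start and a GC box, read on the other strand, that begins 84 bases before it. The window of a start inside Dclk1 held an AP-1 match 59 bases before that start, and the other 4 windows held no match. Among 32851 promoters of the same length, 4.46% held the AP-1 letters, 12.6% the TEAD letters, 32.7% the GC box and 12.4% the TATA box. A match describes letters in a window and says nothing of whether a factor binds there.

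Cilp and Serpinf1 are the secreted members. Cilp, a matrix protein named for cartilage that binds TGF-beta1 and IGF-1 (9:65265180-65280605, plus strand), was 923 in PT and 21.5 in Lung met of Her2, 816.5 and 72.2 in C3Tag, and 911.5 and 73.0 in the AKR-named table. It was lower in Lung met by 42.9-fold, 11.3-fold and 12.5-fold in these tables. In PT its level per kilobase of exon, 192 to 217, came after that of Serpinf1 only in Her2 and the AKR-named table, and in Lung met it was 5.06 to 17.2. The share of genes with a lower log2 value than Cilp was 0.00549% in Her2, 0.202% in C3Tag and 0.0280% in the AKR-named table. Cartilage and tendon genes, 3 or 4 of 5 analysed, had a median log2 of -0.25 in Her2, -0.01 in C3Tag, -0.34 in BALB, -0.98 in SEAGN and -0.29 in the AKR-named table. Chad, the cartilage matrix gene chondroadherin, was 296 in PT and 70.3 in Lung met of the AKR-named table (log2 -2.07), at -2.97 in BALB and -3.78 in SEAGN, and at -0.30 in Her2 and 1.17 in C3Tag. The part of such tissue in the difference of Cilp was not tested.

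Serpinf1, the secreted serpin PEDF that lacks protease inhibition and restrains vessel growth (11:75409769-75422701, minus strand), had PT means of 647 in Her2, 841 in C3Tag, 224 in BALB, 279 in SEAGN and 675 in the AKR-named table. Lung met means were 105, 238, 33.4, 33.8 and 389. The difference ran from 1.73-fold lower in the AKR-named table to 8.26-fold lower in SEAGN, a span of 2.25 on the log2 scale, about 3 times the span of Fap. Pnpla2, which encodes a lipase that PEDF binds, had log2 values from -0.03 in C3Tag to 0.32 in BALB.

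Dclk1, the doublecortin-like kinase that also marks tuft cells (3:55242364-55539068, plus strand), divided the tables. Its mean was 252 in PT and 262 in Lung met of Her2, 567 and 730.3 in C3Tag, and 368 and 539.8 in the AKR-named table. In BALB it was 111 in PT and 35.9 in Lung met, and in SEAGN 288 and 43.9. Lung met was therefore 3.09-fold lower in BALB and 6.57-fold lower in SEAGN. The Lung met mean was 1.04 times the PT mean in Her2, 1.29 times in C3Tag and 1.47 times in the AKR-named table. Dclk1 had the widest span of log2 values of any member, 3.27. The BALB and SEAGN tables also name their genes by the BALB/cJ annotation and the other 3 by the reference one, so cross and annotation cannot be told apart for Dclk1. Its relative Dclk2 was 1.22 lower on the log2 scale in SEAGN (159 in PT, 68.0 in Lung met) and near equal in BALB (110.4 and 108). Tuft cell markers, of which 1 to 3 of 6 were analysed per table, had summed means of 10.1 in PT and 11.7 in Lung met of BALB and of 13.3 and 9.61 in SEAGN, and none was 2-fold lower in any table.

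**Figure D2:**
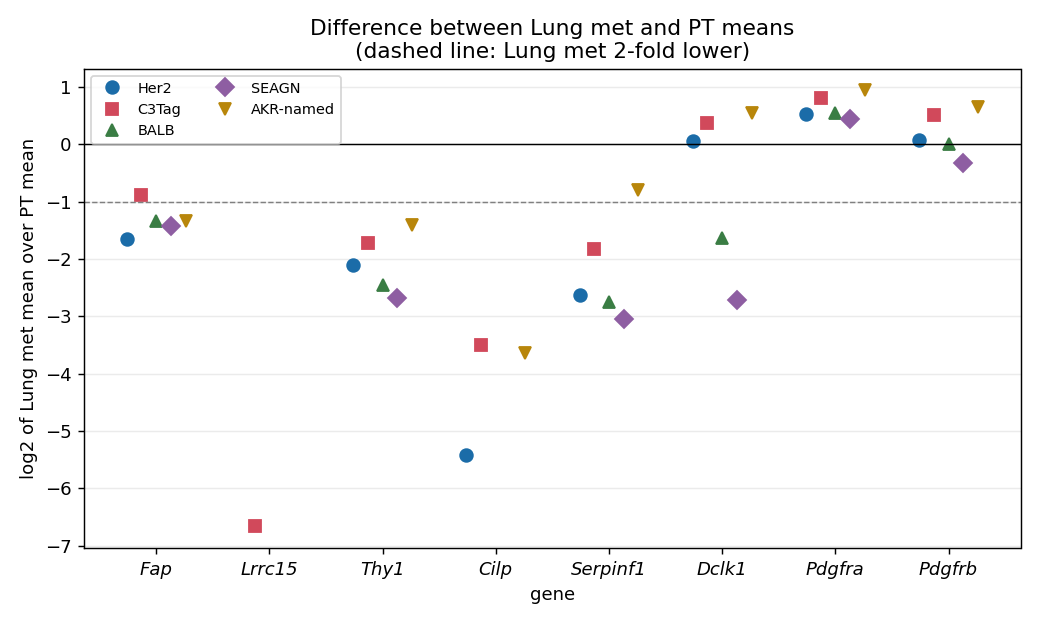
Log2 of the Lung met mean over the PT mean for each gene, with a symbol per table and a dashed line at a 2-fold lower Lung met mean. Thy1 lies below the line in all 5 tables and Pdgfra above 0 in all 5, and Dclk1 runs from -2.72 in SEAGN to 0.55 in the AKR-named table.

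Set against the PDGF receptors of the same tissue, the other markers were a smaller fraction in Lung met. These ratios are of normalized means not corrected for length, so only their change between tissues is compared. Fap was 19.6% of the Pdgfra mean in PT and 4.36% in Lung met of Her2, 4.72% and 1.47% in C3Tag, 15.5% and 4.20% in BALB, 13.9% and 3.80% in SEAGN, and 21.0% and 4.34% in the AKR-named table. Its share was thus smaller in Lung met in 5 of 5 tables, which is fixed by Fap being lower and Pdgfra higher in each. The same holds for Thy1 and Serpinf1, so their ratios to Pdgfra restate the differences above and are no further result. Against Pdgfrb, Fap went from 16.3% to 4.98% in Her2 and from 15.7% to 7.25% in SEAGN. Thy1 as a percentage of Pdgfra went from 87.4% to 14.2% in Her2, from 12.4% to 2.15% in C3Tag, from 51.5% to 6.41% in BALB, from 30.3% to 3.48% in SEAGN and from 99.8% to 19.6% in the AKR-named table. Serpinf1 went from 102% to 11.5% in Her2 and from 153% to 45.8% in the AKR-named table. Dclk1 against Pdgfrb kept its percentage within 1 point in Her2 (32.9% and 32.6%) and went from 102% to 19.4% in SEAGN.

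**Figure D3:**
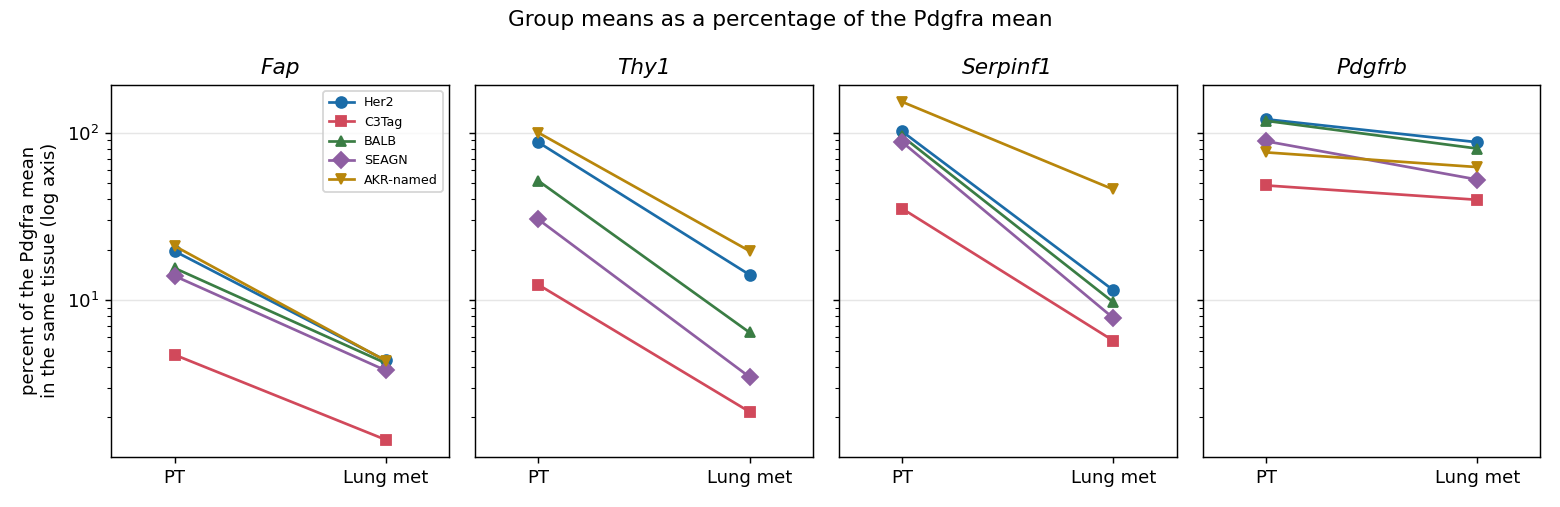
Group means of Fap, Thy1, Serpinf1 and Pdgfrb as a percentage of the Pdgfra mean in the same tissue (log axis), with a line per table from PT to Lung met. Every line ends lower in Lung met than in PT, as for Fap in Her2 (19.6% to 4.36%) and Pdgfrb in Her2 (120% to 87.6%). For Fap, Thy1 and Serpinf1 this follows from their lower means and the higher Pdgfra mean in Lung met.

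Levels per kilobase of exon (GENCODE M21 lengths) could be compared between genes in the 3 tables with reference gene identifiers. In PT, Serpinf1 had the highest level per kilobase in each, at 274 in Her2, 356 in C3Tag and 286 in the AKR-named table. The lowest in PT was Dclk1 in Her2 (16.5), and Fap in C3Tag (19.9) and the AKR-named table (16.5). In Lung met the order differed, with Pdgfrb highest in Her2 (146), Pdgfra highest in C3Tag (415) and Serpinf1 still highest in the AKR-named table (165). The lowest Lung met levels were Cilp in Her2 (5.06), Lrrc15 in C3Tag (1.38) and Fap in the AKR-named table (6.53). Neighbors in these orders cannot be called different, since no spread between animals was at hand.

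How many other fibroblast genes were at least 2-fold lower in Lung met differed between the tables. Some of the genes for matrix proteins were lower to some degree in all 5 tables, and others were not. Of the genes for fibroblast matrix proteins, 7 of 11 were at least 2-fold lower in Her2, 1 of 12 in C3Tag, 8 of 12 in BALB, 9 of 12 in SEAGN and 8 of 12 in the AKR-named table, with list medians of -1.13, -0.03, -1.51, -2.19 and -1.23. The share of all genes that low lay between 1.43% in Her2 and 3.22% in SEAGN. At least 2-fold higher were 2 genes of this list in Her2, 3 in C3Tag, 3 in the AKR-named table and none in BALB or SEAGN. Over all genes, 2.38% were at least 2-fold higher in Lung met in Her2, 7.42% in C3Tag, 2.26% in BALB, 2.86% in SEAGN and 7.31% in the AKR-named table. Lum, which encodes the collagen-binding proteoglycan lumican, had a median log2 over the tables of -4.17, and its means were 420 in PT and 23.3 in Lung met of Her2. Mmp2, a gelatin-degrading protease, had a median of -1.67 and Col1a2, a chain of type I collagen, one of -1.52. In C3Tag these 3 genes were at -1.63, -0.28 and -0.06. Of the members there, Lrrc15, Thy1, Cilp and Serpinf1 were past 2-fold lower, and Fap, Dclk1 and the PDGF receptors were not. Because this contrast chose the members, the list is not compared with them. Podoplanin (Pdpn), a surface glycoprotein of fibroblasts and alveolar type I cells, was higher in Lung met in 5 of 5 tables with a median of 1.14, as was Fn1, the matrix protein fibronectin, with a median of 1.02. Vim, the filament protein vimentin, was at 1.44 in C3Tag and 1.60 in the AKR-named table, and at -0.71 in Her2, 0.06 in BALB and -0.33 in SEAGN.

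Among contractile and TGF-beta-induced CAF genes, 4 of 12 were at least 2-fold lower in Her2, 4 of 12 in C3Tag, 7 of 12 in BALB, 6 of 10 in SEAGN and 6 of 10 in the AKR-named table. Over all genes, 1.43% were that low in Her2, 1.70% in C3Tag, 2.40% in BALB, 3.22% in SEAGN and 1.73% in the AKR-named table. Col12a1, a fibril-associated collagen, was lower in each table, from a log2 of -1.36 in the AKR-named table to -3.29 in SEAGN. Thbs2, an antiangiogenic matrix glycoprotein, ranged from -1.83 in Her2 to -2.87 in SEAGN, and Cthrc1, a secreted protein of collagen-producing fibroblasts, from -0.84 in C3Tag to -2.75 in SEAGN. Acta2, the smooth muscle actin of contractile CAFs, was between -0.18 and 0.48 in the 3 tables that listed it. Adam12, a membrane metalloprotease, was at least 2-fold lower in BALB (-1.64), SEAGN (-2.42) and the AKR-named table (231 in PT, 115 in Lung met), and at -0.60 in Her2 and 0.19 in C3Tag.

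Inflammatory CAF genes were mixed between the tables. At least 2-fold lower were 2 of 11 in Her2, 1 of 9 in BALB and none of 11 in C3Tag, 8 in SEAGN and 9 in the AKR-named table, and at least 2-fold higher were 2 in Her2, 4 in C3Tag, 5 in the AKR-named table and none in BALB or SEAGN. Of all genes, from 1.43% in Her2 to 3.22% in SEAGN were at least 2-fold lower. From 2.26% in BALB and 2.38% in Her2 to 7.31% in the AKR-named table and 7.42% in C3Tag were at least 2-fold higher. None of the genes was lower at all in C3Tag or the AKR-named table, whereas 7 of 8 were in SEAGN, where the list median was -0.43. Dpt, a matrix protein that binds decorin, was at -2.07 in Her2 and -1.06 in BALB but 1.28 in C3Tag, and Clec3b, which encodes tetranectin, at -1.16 in Her2 and 1.54 in the AKR-named table. Ly6c1, an antigen of some fibroblasts that endothelial cells and monocytes also carry, had log2 values of 0.94, 3.20 and 2.14 in Her2, C3Tag and the AKR-named table. Il6, an inflammatory cytokine, had means of 3.89 to 21.3 and a median log2 of 1.17 over 3 tables, and Cxcl1, a chemokine for neutrophils, a median of 0.38 over 5.

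The PDGF ligand and signaling genes are given beside their receptors. Of these 12 genes, none was 2-fold lower in any table. Between 1.43% of all genes in Her2 and 3.22% in SEAGN were that low, so nothing is read from this count. At least 2-fold higher were 1 in C3Tag and 2 in the AKR-named table, where 7.42% and 7.31% of all genes were. Pdgfb had log2 values from 0.11 in SEAGN to 1.13 in the AKR-named table and Pdgfa from 0.09 in BALB to 1.10 in the AKR-named table. Pdgfc, whose product binds PDGFRA after being cut, was between -0.35 in C3Tag and 0.22 in the AKR-named table, and Pdgfd, which signals through PDGFRB, between -0.31 in SEAGN and 0.60 in BALB. Pdgfrl, a receptor-like gene without a kinase, was lower in each table, from -0.15 in Her2 to -0.99 in BALB.

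TGF-beta is the signal that induces Lrrc15 and many matrix genes. Of the 8 or 9 genes of its pathway analysed per table, none was 2-fold lower in any table. Between 1.43% of all genes in Her2 and 3.22% in SEAGN were that low, so nothing is read from this count. In C3Tag 2 of 9 were at least 2-fold higher, where 7.42% of all genes were, and none was in the other tables. Tgfb2 had its highest log2 value, 1.31, in C3Tag (269 in PT, 667.5 in Lung met) and a median of 0.37 over the tables, Tgfbr2 had a median of 0.16, and the co-receptor Tgfbr3 one of -0.28. Of the partners of the members, Igf1, the growth factor that CILP binds, was higher in each table (log2 0.39 to 1.72), and Itgb3, an integrin chain that pairs with alpha-v and binds THY1, lay between -0.31 and 0.37. Among the relatives, the Fap homolog Dpp4 was 87.3 in PT and 557 in Lung met of C3Tag but 538 and 433 in Her2. Dpp8 and Dpp9, the cytoplasmic relatives, lay between -0.15 and 0.70. Cilp2, the paralog of Cilp listed only in C3Tag, was 110.0 in PT and 21.3 in Lung met, and Dclk3, a further doublecortin-like kinase, was at -0.95 in Her2, -0.96 in C3Tag, 0.60 in BALB and -0.47 in SEAGN. Of the kinase receptors of the same class as the PDGF receptors, Kit lay between -0.23 and 0.51, and Flt3 was at -0.19 in Her2, 0.85 in C3Tag and 1.58 in the AKR-named table.

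**Figure D4:**
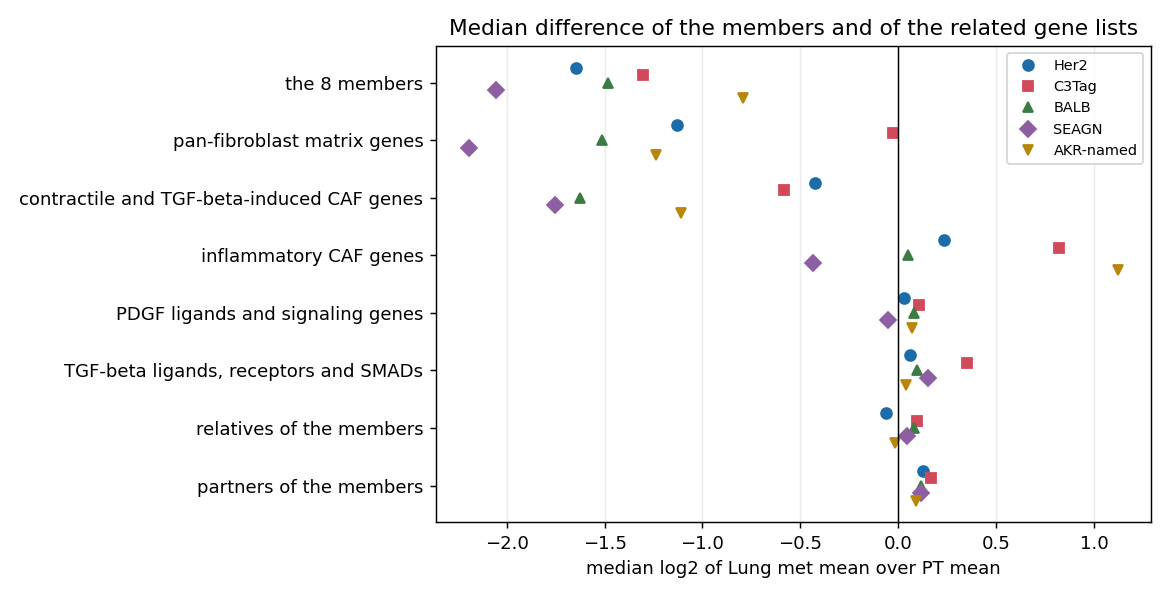
Median log2 of Lung met over PT for the members and for each related gene list (rows), with a symbol per table. The fibroblast matrix list lies below -1.1 in every table except C3Tag (-0.03), while the PDGF, TGF-beta, relative and partner lists lie between -0.06 and 0.35.

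The genes whose log2 values lay closest to the median of the members over the 5 tables, among 12311 compared, were Cpz (root mean square distance 0.20), Aoc3 (0.34), Abi3bp (0.34), Fcrls (0.35) and Aspn (0.38). Cpz, a carboxypeptidase bound to matrix, was at -1.77 in Her2, -1.15 in C3Tag, -1.39 in BALB, -2.32 in SEAGN and -1.08 in the AKR-named table. Aspn and Abi3bp encode matrix proteins, Aoc3 an amine oxidase on the surface of vessels and fat cells, and Fcrls a receptor of macrophages.

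Other cell types also differed between the tissues, and their part in the members' differences was not tested. Skeletal muscle markers, of which 1 to 4 of 5 were analysed per table, were all lower in Lung met in Her2 (summed level 353 in PT, 31.1 in Lung met), C3Tag (1140.1 and 54.1), BALB (421 and 10.3) and SEAGN (72.8 and 7.67). In the AKR-named table none was lower and the sum was 37.0 in PT and 60.5 in Lung met. In that table the Lung met mean was 12.5-fold lower for Cilp, 2.65-fold for Thy1, 2.52-fold for Fap and 1.73-fold for Serpinf1. Fat cell markers were lower in every table, with 1 or 2 of 6 analysed, as in Plin4, a protein of lipid droplets (117 in PT and 29.8 in Lung met of Her2, 67.3 and 26.5 in the AKR-named table).

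Markers of the lung were higher in Lung met. Of 10 lung epithelium markers 6 were analysed, and their median log2 ran from 2.87 in Her2 to 4.41 in C3Tag. Ager, a gene of alveolar type I cells, was 62.5 in PT and 1847 in Lung met of Her2 and 214 and 9532 in the AKR-named table. The summed level of this list was 59024 in PT and 58388 in Lung met of Her2 and 3508 and 3016 in BALB, because Aqp5, a water channel also high in PT, took most of it, and it was higher in Lung met in the other 3 tables, up to 2296 and 17984 in C3Tag. Lung fibroblast markers, 5 or 6 of 10 analysed, had medians of 0.28 in Her2, 1.65 in C3Tag, 0.35 in BALB, 0.85 in SEAGN and 1.16 in the AKR-named table, and none was 2-fold lower. Gpc3, one of them, was 112 in PT and 738 in Lung met of C3Tag. In Her2, Npnt (41503 in PT, 42076 in Lung met) and Itga8 (11170 and 13921) were already high in PT. Which cells carried them there was not tested, so the Her2 median is no measure of lung fibroblasts alone. Pericyte and smooth muscle markers, 9 or 10 of 10 analysed, had medians of -0.08 to 0.39, and from 2 of 9 in SEAGN to 5 of 10 in C3Tag and in BALB were lower in Lung met. Among pericyte genes Rgs5 was lower in 5 of 5 tables (log2 -0.77 to -0.01), and Cox4i2 (0.99 to 4.19), Higd1b (0.40 to 2.42) and Mcam (0.14 to 0.61) were higher in 5 of 5. Endothelial markers were higher, with medians of 0.64 in SEAGN to 1.75 in the AKR-named table. Macrophage markers, 7 of 8 analysed, had medians of -0.23 in Her2, 0.61 in C3Tag, 0.03 in BALB, 0.22 in SEAGN and 0.72 in the AKR-named table, and Mrc1, the mannose receptor, was 1275 in PT and 408 in Lung met of Her2. Myoepithelial markers, 3 to 5 of 5 analysed, were lower in C3Tag (3 of 3, summed level 7650 in PT and 3017 in Lung met, Krt14 at -1.51), whereas their medians were 1.12 in Her2, 0.82 in BALB, 0.80 in SEAGN and -0.35 in the AKR-named table. Luminal epithelium markers of the tumor cells had medians of 0.00 to 0.23. No gene of any table had a mean of 0, so the same holds for the markers analysed. That says nothing of markers that were not listed.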

How the data were processed

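RNA of PT and Lung met was sequenced from total RNA libraries depleted of ribosomal RNA per the labels, whereas the methods describe mRNA libraries. Reads were aligned and counted per gene in Partek Flow, and the submitters' processing notes name STAR 2.7.8a and mm39, whereas the methods name mm9 and mm10. For the comparison of tissues the authors used DESeq2 in the PyMT-F1 crosses and Gene Specific Analysis in Her2, C3Tag and Myc. The values used are the authors' least-squares means, treated as a signal, that is a normalized mean count per gene and tissue. The normalization is not given in the sources used here, and each table was normalized on its own. The p-values, FDR, ratios and fold changes that the tables also hold were not used, and the Myc table, which holds only p-values and FDR, was not analysed.

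Log2 of Lung met over PT was computed for genes whose larger mean was at least 1, and no test was run. The members and gene lists were chosen with earlier results of these data known. Named from each list of related genes were the 3 furthest from 0 in median log2, direct relatives, ligands or partners of a member, and the 5 genes nearest to the members' median. Pdpn, Fn1, Vim, Acta2, Adam12, Dpt, Clec3b and all cell type markers were named after their values were seen. Rows without a symbol, 2671 in BALB, 2684 in SEAGN, 8 in Her2, 13 in C3Tag and 11 in the AKR-named table, could not be matched. A gene that was not listed may therefore lie among them. Gene positions and exon lengths are from GENCODE M21 on GRCm38 and promoters from RefSeq on GRCm38.p6. Calculations in Python 3.11.15 with numpy 2.4.6 and pandas 2.3.3 were tested on simulated data. Alternatives were a 1.5-fold limit, added pseudocounts of 1 and 10, a larger mean of at least 10, no filter, and centring on the median of all genes.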

Additional observations from a re-analysis of the deposited data

How the results depend on the processing

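Of 170 member values recomputed under the alternatives, 168 stayed within 1.5-fold of the reported ratio and none changed sign. The limit of 10 and the absence of a filter, with 34 values each, could not change a member, as every larger mean was above 10. Centring moved all values of a table by the same small amount, so only the pseudocounts bear on single values. The exceptions were Lrrc15 in C3Tag (log2 -5.45 with a pseudocount of 10, -6.67 without) and Thy1 in SEAGN (-2.09, against -2.68). With a pseudocount of 10, Fap in BALB moved from a log2 of -1.34 to -0.93 and was no longer 2-fold lower, which left 3 of 6 members there against 4, and the counts of the other tables did not change. A 1.5-fold limit gave 4 of 7 members lower in Her2, 5 of 8 in C3Tag, 4 of 6 in BALB, 4 of 6 in SEAGN and 4 of 7 in the AKR-named table. The share of all genes past 1.5-fold was not computed, so nothing is read from these counts. No paired analysis was possible because the tables hold only group means, which also kept any replicate from being left out. Depth is unknown, so differences of low means, such as those of Fap in BALB, have no stated precision.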
